A study of Mus musculus with 6 samples.

Results

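The 49 genes described here encode axon guidance proteins: secreted class 3 semaphorins (7 genes), membrane-bound semaphorins of classes 4 to 7 (13), plexins (9), slits (3), ROBO receptors (4), netrins and netrin-Gs (5), the netrin receptors of the UNC5 family and DCC (5) and FLRT proteins (3). They were chosen by gene symbol from a table of 24421 genes. Of the 50 genes whose symbols matched, 49 had at least 15 counts summed over the samples, and Ntn5, with 2 counts, was left out. Their transcripts were measured by bulk RNA-seq in retinal endothelial cells isolated from mouse pups on postnatal day 7. Both groups were of mixed BL6/CD1 background, were homozygous for floxed Smad4 and had been injected with tamoxifen on postnatal day 1. In the Smad4-iECKO group (3 samples) the transgene Cdh5-CreERT2 adds a Cre recombinase that tamoxifen activates and that the endothelial Cdh5 promoter drives, and the Smad4f/f group (3 samples) lacks it. The labels name neither the floxed exons nor the number of pups behind a sample, so a p-value here refers only to variation among these 6 samples.

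Guidance proteins were first known as cues that steer growing axons, and endothelial tip cells of the sprouting retinal plexus read many of the same cues. Plexins are the receptors of semaphorins, and class 3 semaphorins mostly bind them together with a neuropilin. Slits bind ROBO receptors, and netrins bind DCC, neogenin and UNC5 receptors, which FLRT proteins also bind. In the retina neurons make many of the ligands, while Plxnd1, Unc5b and Robo4 are known receptors of endothelial cells.

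Total counts ran from 2233360 in Smad4-iECKO replicate 2 to 23164952 in Smad4f/f replicate 2, and were 12633018 to 17677696 in the other libraries. Levels below are CPM, that is read counts scaled to a common library total, by the TMM method, always in the order of replicates 1, 2 and 3. Transcripts of the targeted gene Smad4 were at 109.5, 153 and 158 CPM in Smad4f/f and at 128, 93.9 and 134 CPM in Smad4-iECKO, and counts per gene do not show whether the floxed exons were lost. Summed over 14 endothelial marker genes, the libraries held 6956, 1314 and 3958 CPM in Smad4f/f and 2151, 4539 and 3398 CPM in Smad4-iECKO, so Smad4f/f replicate 2 was lowest and Smad4f/f replicate 1 highest. Of these 14 markers 12 had negative log2 fold changes. Markers of rod photoreceptors (10 genes) were abundant as well, at 5572 to 10422 summed CPM in Smad4f/f and 5014 to 8880 in Smad4-iECKO. All 10 microglial markers had positive log2 fold changes (33.8 to 58.3 against 79.0 to 127 summed CPM), as did all 6 astrocyte markers (103 to 407 against 175 to 713) and the 4 tested of 6 fibroblast markers (105 to 422 against 301 to 795), of which Lum was at 0 in every library. The astrocyte and fibroblast lists share Pdgfra, which held 247 CPM in Smad4f/f replicate 1 and 387 CPM in Smad4-iECKO replicate 3, so their sums are not independent. Pericyte and smooth muscle markers were at 625 to 2866 against 1118 to 2075 summed CPM. In such bulk samples fewer cells of a type and less RNA per cell cannot be told apart, and the part of these markers in the results below was not tested except where values relative to endothelial markers are given.

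Per kilobase of exon, Plxnd1, the plexin of endothelial cells, stood highest of the 49 genes, at 117 ± 65.02 CPM per kilobase (mean ± SD over the 6 libraries). It was followed by the plexins Plxnb1 (58.7 ± 17.7) and Plxnb2 (56.8 ± 10.9), the membrane-anchored semaphorin Sema7a (43.5 ± 12.1) and Plxna2 (41.8 ± 8.78). The endothelial netrin receptor Unc5b (30.0 ± 13.0 CPM per kilobase) and the endothelial receptor Robo4 (29.1 ± 12.5) came next, each the highest of its role. Sema3f (25.5 ± 6.27), Ntng2 (20.5 ± 7.35), Slit2 (10.2 ± 2.0) and Flrt2 (8.34 ± 6.32) led the class 3 semaphorins, netrins, slits and FLRT genes. The lowest was Plxnb3, at 0.163 ± 0.214, with Slit3 (0.264 ± 0.161), Sema3a (0.372 ± 0.220), Sema3c (0.402 ± 0.439), Sema3b (0.427 ± 0.13) and Ntn1 (0.518 ± 0.540) just above it. For no gene in this order did the lowest of the 6 libraries exceed the highest library of the next gene. The ranges of neighbours thus overlapped, although some, such as Plxnb2 above Sema7a, kept their order within each library. Reads may be shared with another gene for Ntng2, which has 13.98% of its exon bases under 6530402F18Rik, and for Plxna1, with 10.7% under the antisense gene Gm26811; the library kit is not stated to keep strand.

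**Figure D1:**
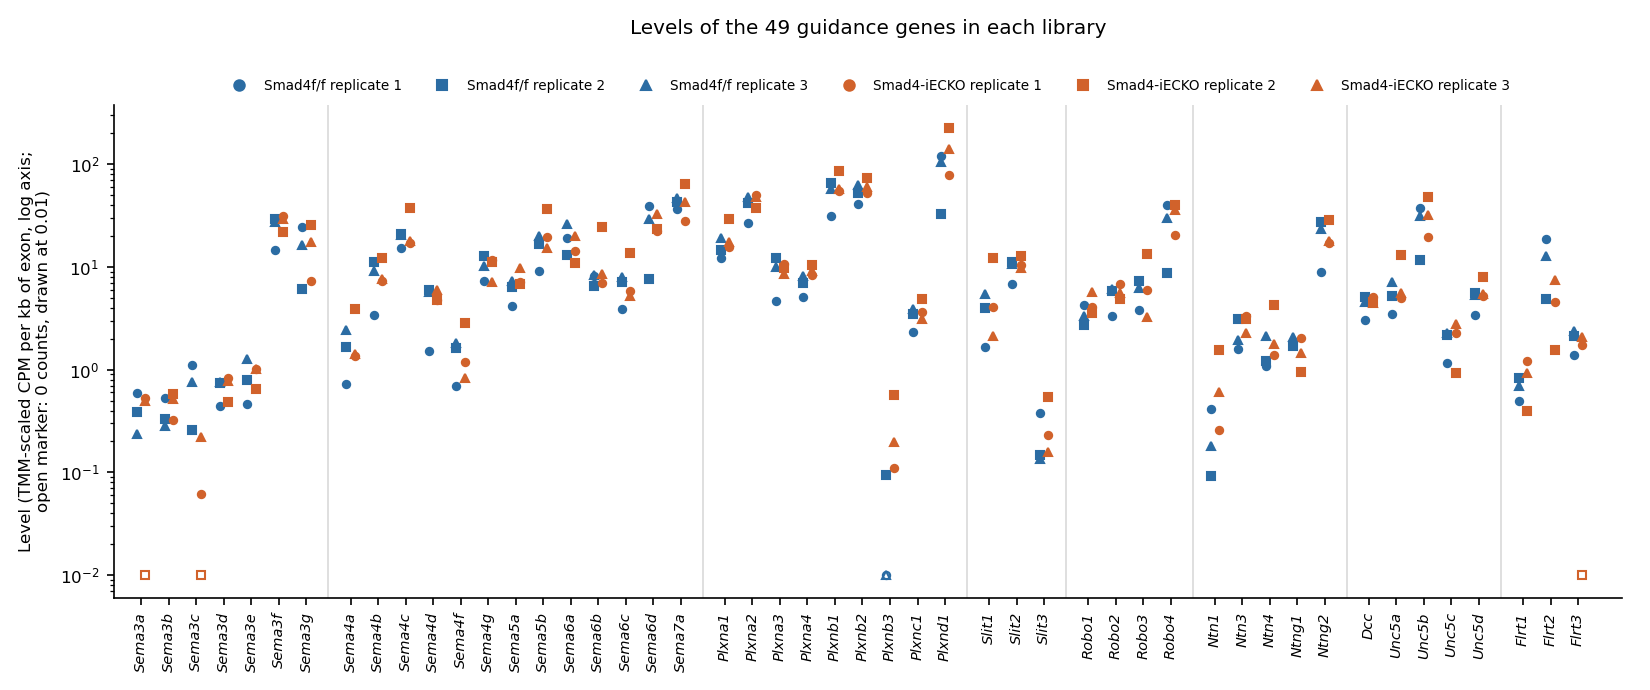
Level of each of the 49 guidance genes in TMM-scaled CPM per kilobase of exon (log axis), with a point per library, Smad4f/f in blue and Smad4-iECKO in orange, grouped by role between the grey lines. Open markers stand for 0 counts; Plxnd1 was highest and Plxnb3 lowest per length.

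Comparing Smad4-iECKO with Smad4f/f asks which guidance transcripts differ between cells isolated from pups with and without the endothelial Cre that targets Smad4. None of the 48 tested members passed edgeR's quasi-likelihood test at a Benjamini-Hochberg adjusted p under 0.05, where 0% of all 14362 genes did. The smallest adjusted p was 0.9999 among the members and 0.864 among all genes. Sema3c and Flrt2, both lower in Smad4-iECKO, were the 2 members at an unadjusted p under 0.05, which 1.31% of all genes reached (188 genes). DESeq2 also called none of the 49 members, against 0.0705% of 17013 genes (12 genes), and its smallest adjusted p for a member was 0.808 (Sema3c). On simulated counts with the library sizes and spread of these data, edgeR recovered 0 of 50 genes changed 2-fold and 20 of 50 changed 4-fold. Differences of the size seen in most members could thus hardly be detected here. The parts of depth and of spread between libraries in this were not tested.

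Most members nevertheless had a positive log2 fold change. It was positive in 41 of the 48 tested members (85.4%) and negative in 7, with a median of 0.25, beside 48.2% positive and a median of -0.02 over all genes tested. Fewer were positive when some libraries were left out. The count was 29 of 49 without Smad4-iECKO replicate 2 (45.0% of all genes were positive) and 32 of 49 without Smad4f/f replicate 1 (50.6%). Among the 4 samples whose titles begin with 38 the count was 28 of 48 (48.9%). Those samples leave out replicate 2 of each group, so Smad4-iECKO replicate 2 is missing there too. Scaled to the 14 endothelial markers, only 20 of 48 members were positive (median -0.05), against 32.5% of all genes, whose median was then -0.18. Groups did not overlap in CPM for 2 of the 48 tested members, Plxna4 higher and Sema3c lower in Smad4-iECKO; among all genes tested the groups did not overlap for 5.31%, with 2.49% higher and 2.83% lower. The untested Plxnb3 did not overlap either.

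**Figure D2:**
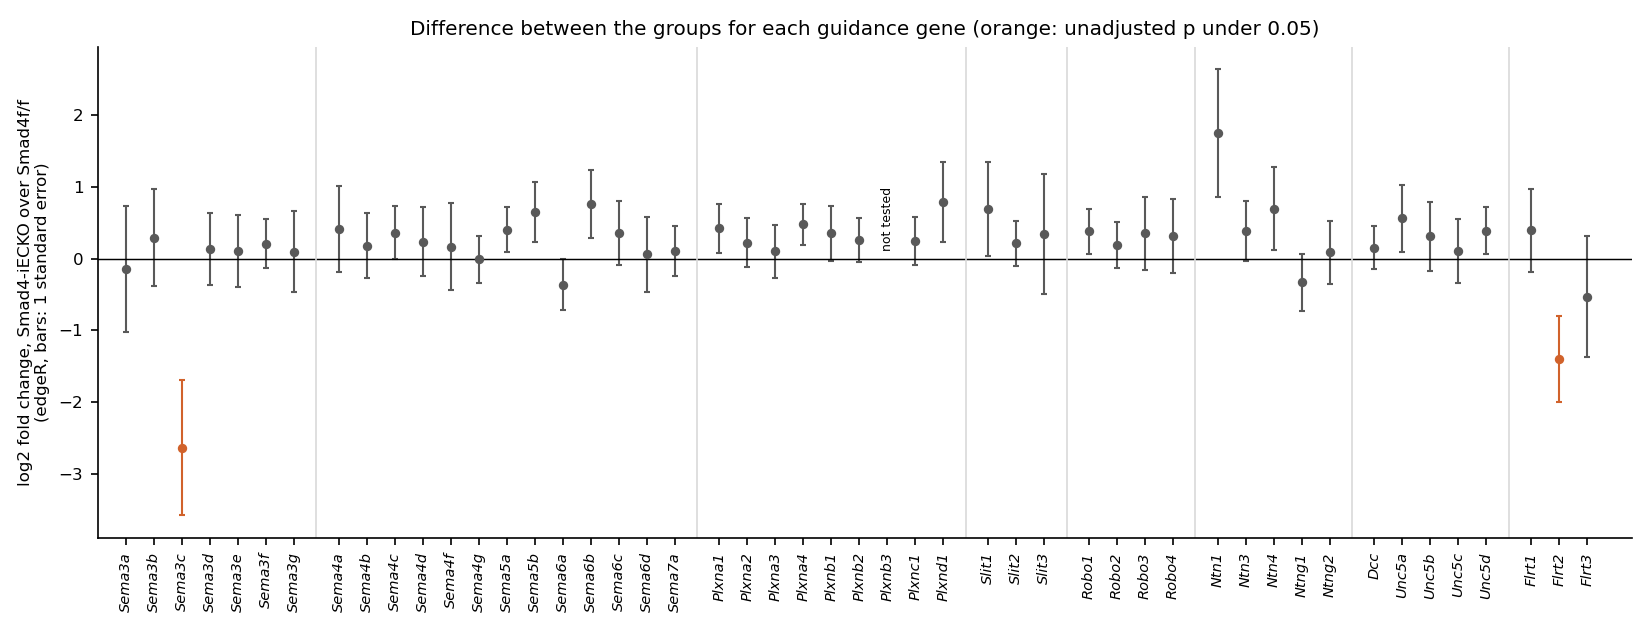
Log2 fold change of each guidance gene, Smad4-iECKO over Smad4f/f, from edgeR, with bars of 1 standard error, grouped by role between the grey lines. Sema3c and Flrt2 (orange) have an unadjusted p under 0.05, Plxnb3 was not tested, and 41 of the 48 points lie above 0.

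A pair of libraries held most of the extreme values. Smad4-iECKO replicate 2, the shallowest library, had the highest level of 27 of the 48 tested members (56.3%), against 31.0% of all genes tested. Smad4f/f replicate 1 had the lowest level of 27 (56.3%), against 21.3% of all genes. Smad4f/f replicate 1 was also the library with the most endothelial marker RNA.

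**Figure D3:**
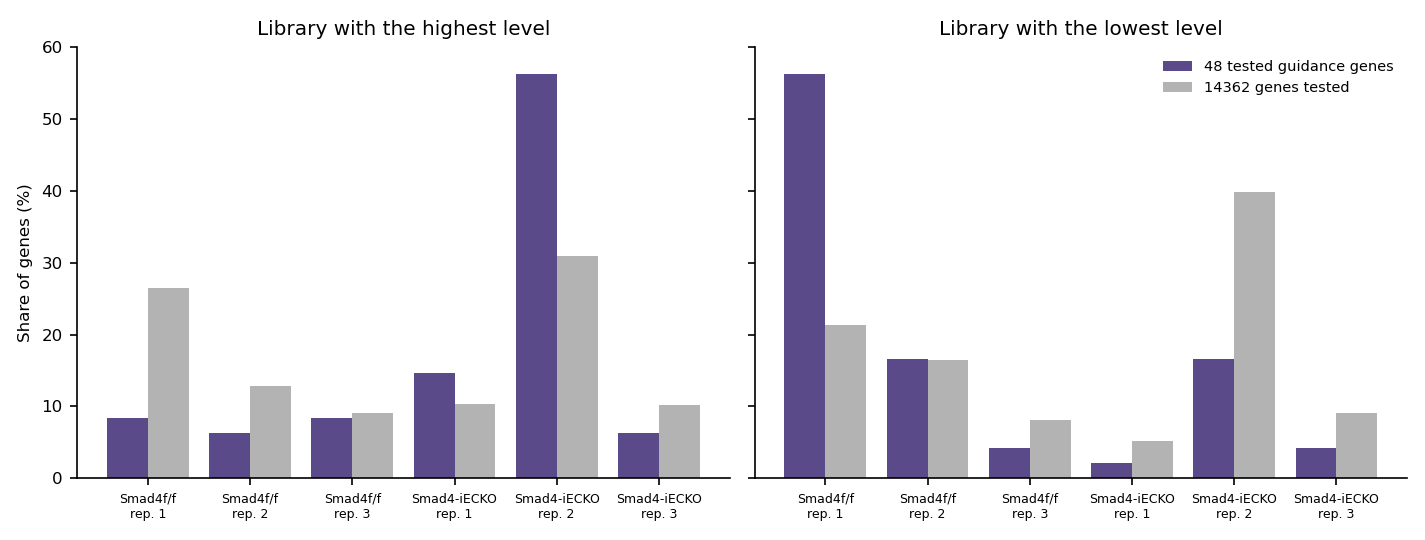
Share of genes (%) whose highest level (left) or lowest level (right) fell in each of the 6 libraries, for the 48 tested guidance genes (purple) and all 14362 genes tested (grey). The guidance genes' tallest bars are Smad4-iECKO replicate 2 for the highest level and Smad4f/f replicate 1 for the lowest, both 56.3%.

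Of the 7 class 3 semaphorins, 5 had positive and 2 negative log2 fold changes (median 0.11), and none passed the test. Sema3c, a secreted ligand that binds neuropilins with plexins (chromosome 5, 17574281 to 17730268, mm10), had the largest log2 fold change in size of the tested members. It was at 7.96, 1.85 and 5.39 CPM in Smad4f/f and at 0.444, 0 and 1.59 CPM in Smad4-iECKO. These levels came from 101, 45 and 72 counts against 8, 0 and 20, and the 0 in the shallow Smad4-iECKO replicate 2 allows up to 1.39 CPM. Every Smad4-iECKO library lay below every Smad4f/f library, although Smad4-iECKO replicate 3 and Smad4f/f replicate 2 were close. Smad4-iECKO averaged 0.680 ± 0.823 CPM and Smad4f/f 5.07 ± 3.07 CPM (SD, n = 3 each), 7.46-fold more. The log2 fold change was -2.63 with a standard error of 0.94 (unadjusted p = 0.0210 by edgeR), and it ran from -3.87 to -2.16 when single libraries were left out.

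The other class 3 semaphorins did not separate the groups. Sema3g, which endothelial cells themselves secrete, was at 111, 27.7 and 73.6 CPM in Smad4f/f and at 33.2, 116 and 79.5 CPM in Smad4-iECKO (log2 fold change 0.10, standard error 0.56). Its low libraries were Smad4f/f replicate 2 and Smad4-iECKO replicate 1, the same pair in which endothelial markers were lowest. Sema3f, a ligand that favours neuropilin 2, was at 75.9, 153 and 142 CPM against 161, 112 and 152 CPM (0.20, standard error 0.34). Its lowest library was Smad4f/f replicate 1. Sema3e, which binds plexin D1 without a neuropilin, was at 4.34, 7.37 and 11.7 CPM against 9.39, 6.04 and 9.49 CPM (0.11, standard error 0.50). Sema3a, a repellent of axons and of sprouting vessels, was at 8.20, 5.31 and 3.29 CPM against 7.28, 0 and 6.86 CPM (-0.15, standard error 0.88). The groups overlapped for each of these 4 genes. Sema3b and Sema3d had log2 fold changes of 0.29 and 0.13.

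Of the 13 membrane-bound semaphorins, 11 had positive and 2 negative log2 fold changes (median 0.23), with an unadjusted p of at least 0.148. Sema6b, a transmembrane ligand of plexin A4, was at 32.5, 26.0 and 33.4 CPM in Smad4f/f and at 27.4, 96.7 and 33.6 CPM in Smad4-iECKO (0.76, standard error 0.48). Smad4-iECKO replicate 2 stood far above the rest, and the other Smad4-iECKO libraries lay within or beside the Smad4f/f range. Sema5b, which restrains neurites in the developing inner retina, was at 64.3, 118 and 139.7 CPM against 139.2, 259.8 and 107 CPM (0.65, standard error 0.42). Here too Smad4-iECKO replicate 2 was highest, and without it the log2 fold change was 0.17. Sema7a, a GPI-anchored semaphorin that binds plexin C1, was at 119.7, 141 and 153 CPM against 92.4, 211.5 and 142 CPM (0.10, standard error 0.35), with both the lowest and the highest value in Smad4-iECKO. Sema6a, a transmembrane ligand of plexins A2 and A4, was at 167, 114 and 228 CPM against 126, 94.8 and 174 CPM (-0.36, standard error 0.36). It was the membrane semaphorin with the most negative value, and its groups overlapped. The 9 others ran from -0.01 (Sema4g) to 0.41 (Sema4a).

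All 8 tested plexins had positive log2 fold changes (median 0.31), and none passed the test. Plxnd1, the receptor of Sema3e on sprouting vessels (chromosome 6, 115954811 to 115995005, mm10), was at 873, 239 and 767 CPM in Smad4f/f and at 566, 1646 and 1029 CPM in Smad4-iECKO. Smad4f/f averaged 626 ± 339 CPM and Smad4-iECKO 1080.3 ± 542 CPM (SD, n = 3 each). The log2 fold change of 0.79 had a standard error of 0.56 (unadjusted p = 0.191 by edgeR). The groups overlapped, since Smad4-iECKO replicate 1 lay below the first and the third Smad4f/f library. Among the samples with title prefix 38 the log2 fold change was -0.06, and with single libraries left out it ran from 0.33 (without Smad4-iECKO replicate 2) to 1.10 (without Smad4f/f replicate 1). Plxna4, a receptor for class 6 semaphorins and, with neuropilin 1, for Sema3a, was at 72.5, 97.2 and 114 CPM against 119, 147 and 129 CPM. Each Smad4-iECKO library was thus above each Smad4f/f library, with means of 131 ± 14.3 and 94.5 ± 20.8 CPM (SD, n = 3 each). Its log2 fold change was 0.47 with a standard error of 0.29 (unadjusted p = 0.132 by edgeR), from 0.31 to 0.62 with single libraries left out. Plxnb3, a receptor of Sema5a, had 0, 15 and 0 counts against 13, 8 and 16 counts, or 0, 0.617 and 0 CPM against 0.722, 3.72 and 1.28 CPM. It had too few counts for edgeR's filter, and DESeq2 gave a log2 fold change of 3.04 (adjusted p = 0.9997). The 6 remaining plexins lay between 0.10 (Plxna3) and 0.42 (Plxna1).

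**Figure D4:**
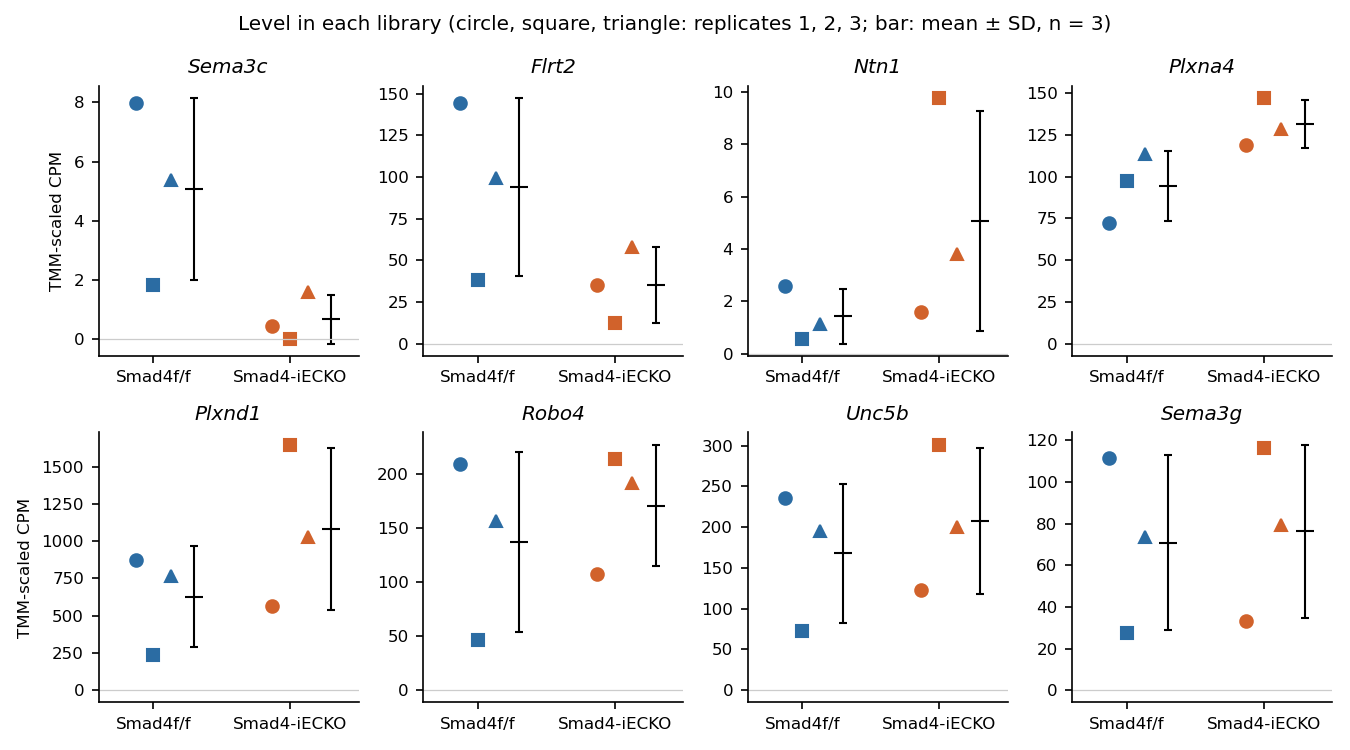
TMM-scaled CPM of 8 guidance genes in each library (circle, square and triangle for replicates 1, 2 and 3), with the mean ± SD of each group (n = 3) as a black bar. Groups do not overlap for Sema3c and Plxna4; for Plxnd1, Robo4, Unc5b and Sema3g the square of Smad4f/f is the lowest Smad4f/f point and the square of Smad4-iECKO the highest point.

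Slits and their ROBO receptors all had positive log2 fold changes (medians 0.34 over 3 slits and 0.33 over 4 receptors), with unadjusted p-values of at least 0.259. Slit2, the slit most studied in retinal vessels, was at 171, 282 and 268 CPM in Smad4f/f and at 265, 325 and 245 CPM in Smad4-iECKO (0.21, standard error 0.31). Slit1 was at 9.86, 23.7 and 32.1 CPM against 23.9, 72.0 and 12.7 CPM (0.69, standard error 0.65), or 21.9 ± 11.2 against 36.2 ± 31.5 CPM (SD, n = 3 each). Among the receptors, Robo4 (chromosome 9, 37401897 to 37415115, mm10), which is largely restricted to endothelium, was at 209, 46.3 and 157 CPM against 107, 214 and 191 CPM (0.31, standard error 0.52). The groups overlapped widely, and the value was -0.31 among the samples with title prefix 38. Robo1, the ROBO receptor of axons that endothelial cells also carry, was at 70.8, 45.0 and 54.3 CPM against 67.7, 59.0 and 93.8 CPM (0.38, standard error 0.31). Slit3, Robo2 and Robo3 had log2 fold changes of 0.34, 0.19 and 0.35.

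Netrins were positive in 4 of 5 genes (median 0.38). Ntn1, the prototype netrin (chromosome 11, 68209364 to 68400823, mm10), had the largest positive log2 fold change of the tested members. It was at 2.60, 0.576 and 1.12 CPM in Smad4f/f and at 1.61, 9.76 and 3.83 CPM in Smad4-iECKO, from 33, 14 and 15 counts against 29, 21 and 48. The groups overlapped at Smad4-iECKO replicate 1, and the highest level came from 21 counts. The log2 fold change was 1.74 with a standard error of 0.89 (unadjusted p = 0.0801 by edgeR), and 0.91 to 2.49 with single libraries left out. Ntn4, a netrin of vascular basement membranes, was at 4.02, 4.57 and 7.93 CPM against 5.17, 15.8 and 6.70 CPM (0.69, standard error 0.58). Ntng2, a GPI-anchored netrin-G, was at 35.2, 109 and 93.1 CPM against 67.9, 113 and 71.7 CPM (0.08, standard error 0.43). Only Smad4-iECKO replicate 2 lay above all Smad4f/f libraries for both, and without it the log2 fold change of Ntn4 was 0.085. Ntn3 and Ntng1 had log2 fold changes of 0.38 and -0.33.

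All 5 netrin receptors had positive log2 fold changes (median 0.31), with unadjusted p-values of at least 0.259. Unc5b (chromosome 10, 60762593 to 60831581, mm10), a receptor that endothelial tip cells carry, was at 236, 72.2 and 196 CPM in Smad4f/f and at 122.8, 301 and 200.2 CPM in Smad4-iECKO. Its log2 fold change was 0.31 with a standard error of 0.48, and -0.43 among the samples with title prefix 38. Unc5a, a neuronal family member, was at 14.5, 21.6 and 29.8 CPM against 20.7, 54.8 and 23.2 CPM (0.56, standard error 0.46). Both genes were highest in Smad4-iECKO replicate 2 and their groups overlapped. Dcc, Unc5c and Unc5d ran from 0.11 to 0.39.

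FLRT genes, which encode membrane proteins that bind UNC5 receptors and latrophilins, were the role with a negative median (-0.53, 3 genes, 2 negative). Flrt2 (chromosome 12, 95692226 to 95785215, mm10) was at 144, 37.9 and 99.0 CPM in Smad4f/f and at 35.2, 12.1 and 57.8 CPM in Smad4-iECKO. Smad4f/f replicate 2 was the single library of its group below the highest Smad4-iECKO level, so the groups overlapped. Smad4f/f averaged 93.7 ± 53.4 CPM (SD, n = 3), 2.68-fold more than the 35.0 ± 22.9 CPM of Smad4-iECKO (SD, n = 3). Its log2 fold change was -1.40 with a standard error of 0.60 (unadjusted p = 0.0460 by edgeR), from -1.94 to -0.94 with single libraries left out. Smad4-iECKO was lower than Smad4f/f within both title prefixes, by log2 ratios of -1.39 (prefix 38) and -1.65 (prefix 40). Prefix 40 holds a single library per group, replicate 2 of each, with 26 Flrt2 counts in Smad4-iECKO, so its ratio has no replication. Flrt3 was at 6.70, 10.3 and 11.7 CPM against 8.39, 0 and 10.2 CPM (-0.53, standard error 0.84), and the 0 in the shallow library allows up to 1.39 CPM. Flrt1 had a log2 fold change of 0.39.

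Levels of members were set beside those of cell type markers across the 6 libraries. Relations of each tested member with the mean log2 CPM of endothelial, rod and ganglion cell markers gave 144 comparisons, and none passed a Benjamini-Hochberg adjusted p under 0.05. With 6 libraries even a perfect rank order has an exact permutation p of 0.00278 for rho, adjusted here to 0.133. A relation could thus hardly pass by rank. The exact p of r is bounded by the orderings of 6 libraries as well, so the lack of a call there decides little. Robo4, Sema3g, Sema6d and Unc5b had a Pearson r of 0.8 or more with the endothelial markers. The share of all genes tested with an r of that size was not computed, for these or for the other markers. Whether the members stand out is therefore not known. For Robo4 r was 0.87 (exact permutation p = 0.0139, adjusted p = 0.371) and Spearman's rho was 0.71 (exact permutation p = 0.136, adjusted p = 0.817). Sema3g had an r of 0.88 (exact permutation p = 0.0139, adjusted p = 0.371) and the same rho as Robo4 with the same p. Unc5b had an r of 0.84 (exact permutation p = 0.0375, adjusted p = 0.424), again with that rho and p. Without the libraries farthest from the median marker level, Smad4f/f replicates 1 and 2, r was 0.86, 0.92 and 0.85 for these 3 genes. Sema6d, a transmembrane ligand of plexin A1 named for this relation, was at 411, 80.7 and 305 CPM in Smad4f/f and at 235, 248 and 348 CPM in Smad4-iECKO. Its r of 0.88 (exact permutation p = 0.0181, adjusted p = 0.371; rho 0.83, exact permutation p = 0.0583, adjusted p = 0.764) was 0.54 without those 2 libraries.

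Dcc, Plxna3, Sema3f and Ntn3 had an r of -0.8 or less with the endothelial markers. Dcc, the netrin receptor of neurons, and Plxna3, a plexin of class 3 semaphorins, each had an r of -0.89 (exact permutation p = 0.0153 and 0.0167, adjusted p = 0.371 for both; rho -0.77 for both, exact permutation p = 0.103, adjusted p = 0.817). Without Smad4f/f replicates 1 and 2 their r was -0.95 and -0.51. Sema3f and Ntn3 had an r of -0.82 and -0.81 (exact permutation p = 0.0458 and 0.0472, adjusted p = 0.424 for both; rho -0.89 for both, exact permutation p = 0.0333, adjusted p = 0.686), which was -0.65 and -0.64 without them. With the rod markers 8 members had an r of at least 0.8 in size, of which Flrt3, Unc5c and Slit3 changed sign once the 2 libraries farthest from the median rod level were left out. By rank, Robo4, Sema3g and Unc5b ran exactly opposite to the rod markers (rho -1.0 for each, exact permutation p = 0.00278, adjusted p = 0.133), the smallest p of the 144 relations. Their r with the rod markers was -0.65, -0.79 and -0.79 (exact permutation p = 0.163, 0.0625 and 0.05, adjusted p = 0.659, 0.5 and 0.424), and -0.89, -0.997 and -0.93 without the 2 libraries farthest from the median rod level. Plxnd1 had a rho of -0.94 (exact permutation p = 0.0167, adjusted p = 0.6) and an r of -0.77 (exact permutation p = 0.0833, adjusted p = 0.555) with the rod markers, and an r of -0.88 without those libraries. Both relations of Robo4, Sema3g and Unc5b, with the endothelial and with the rod markers, rest on the same 6 libraries. No member had an r of 0.8 or more in size with the ganglion cell markers.

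**Figure D5:**
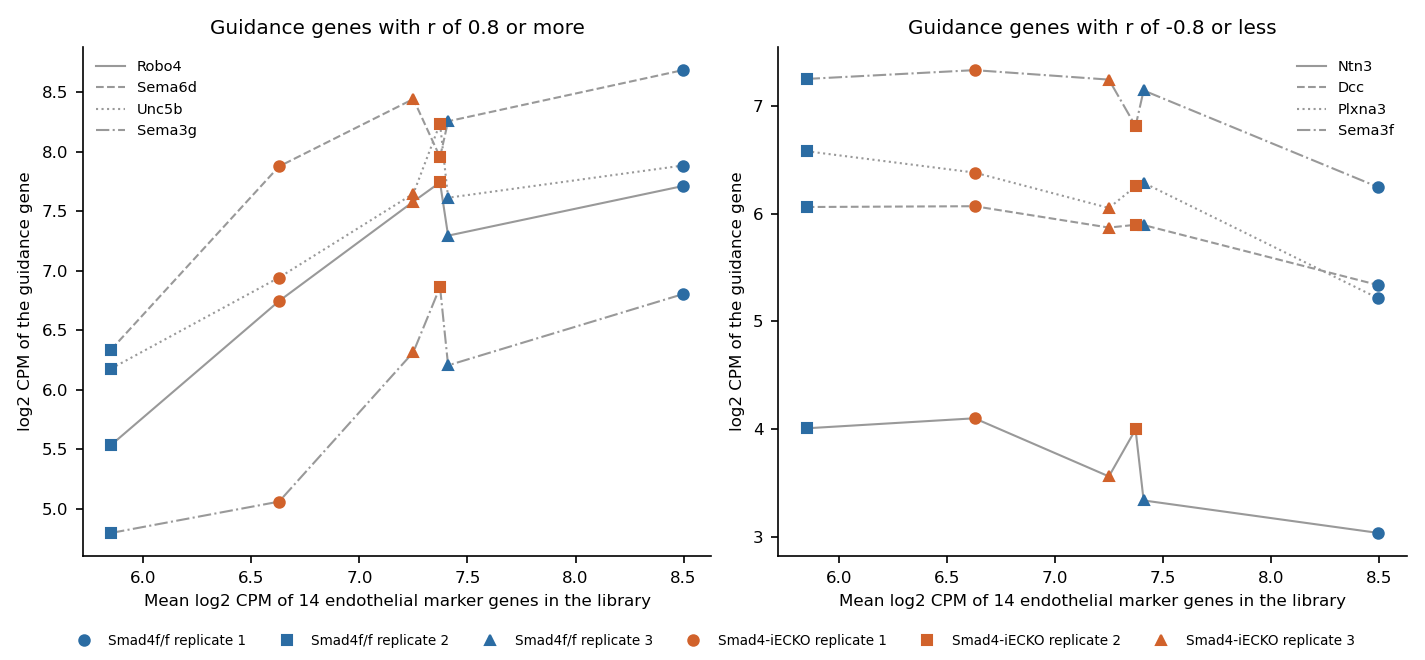
Log2 CPM of guidance genes (vertical axis) against the mean log2 CPM of 14 endothelial marker genes in the library (horizontal axis), a point per library, with lines that join the points of a gene from left to right. Left, the 4 genes with r of 0.8 or more; right, the 4 with r of -0.8 or less; Smad4f/f replicates 2 and 1 are the outermost points in both panels.

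Expressed relative to the endothelial markers of the same library (log2 CPM of the gene minus the mean log2 CPM of the markers), Plxnd1, Robo4 and Ntn1 were above every Smad4f/f library in each Smad4-iECKO library. Flrt2 and Sema3c were below. These 5 of the 48 tested members did not overlap on this scale, against 3.22% of all genes tested (2.65% above and 0.578% below). In CPM the groups overlapped for Plxnd1, Robo4, Ntn1 and Flrt2. The 14 markers themselves had a median log2 fold change of -0.51 (12 negative), and their part in these differences was not tested. Plxnd1 was at 1.27, 2.05 and 2.17 in Smad4f/f and at 2.52, 3.31 and 2.76 in Smad4-iECKO, or 1.83 ± 0.49 against 2.86 ± 0.41 (log2 units, SD, n = 3 each). Robo4 was at -0.79, -0.31 and -0.12 against 0.12, 0.37 and 0.33. Flrt2 was at -1.32, -0.60 and -0.78 against -1.49, -3.76 and -1.39, so 2 of its 3 Smad4-iECKO libraries were close to Smad4f/f replicate 1. Sema6d, Sema3g, Robo4, Unc5b and Plxnd1 varied least over the 6 libraries on this scale (SD 0.42, 0.43, 0.44, 0.48 and 0.69), where the median SD of the tested members was 1.14. All of these but Plxnd1 are the genes with an r of 0.8 or more above, so their low SD largely restates that relation. The SD over all genes was not computed on this scale. The difference of group means was above 0 for 42 members and below 0 for 6. Subtracting the marker mean shifts this difference equally for every gene, and the share above 0 over all genes was not computed. In the edgeR fit scaled to the same markers 20 members were positive. The same marker means enter both, but log2 values were averaged here and counts were fitted there. The balance of signs thus depends on the scale used.

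Promoters are shown for the 5 members that varied least against the endothelial markers, and for Flrt2, the most abundant member with an unadjusted p under 0.05. The sequences are the RefSeq bases just before the GENCODE M21 gene start (GRCm38.p6), in the direction of the gene. Capitals mark CAGAC or its reverse complement GTCTG, letters that SMAD proteins bind. Flrt2 lies at chr12:95691976-95692225 (plus strand), Plxnd1 at chr6:115995006-115995255 (minus), Robo4 at chr9:37401722-37401896 (plus), Sema3g at chr14:31217623-31217859 (plus), Sema6d at chr2:124089719-124089968 (plus) and Unc5b at chr10:60831582-60831831 (minus).
Flrt2: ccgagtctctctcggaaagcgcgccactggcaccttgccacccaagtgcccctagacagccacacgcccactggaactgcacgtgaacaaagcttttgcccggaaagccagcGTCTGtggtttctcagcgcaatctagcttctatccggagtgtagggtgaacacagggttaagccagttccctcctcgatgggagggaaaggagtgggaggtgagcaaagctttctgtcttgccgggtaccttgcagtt
Plxnd1: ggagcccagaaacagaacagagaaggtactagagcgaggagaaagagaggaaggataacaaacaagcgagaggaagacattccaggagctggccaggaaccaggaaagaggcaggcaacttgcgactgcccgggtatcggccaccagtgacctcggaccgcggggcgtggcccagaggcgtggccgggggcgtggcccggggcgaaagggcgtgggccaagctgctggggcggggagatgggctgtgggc
Robo4: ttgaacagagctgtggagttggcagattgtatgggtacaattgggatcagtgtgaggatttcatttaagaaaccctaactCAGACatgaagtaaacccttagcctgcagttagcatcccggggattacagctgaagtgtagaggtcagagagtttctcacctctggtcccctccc
Sema3g: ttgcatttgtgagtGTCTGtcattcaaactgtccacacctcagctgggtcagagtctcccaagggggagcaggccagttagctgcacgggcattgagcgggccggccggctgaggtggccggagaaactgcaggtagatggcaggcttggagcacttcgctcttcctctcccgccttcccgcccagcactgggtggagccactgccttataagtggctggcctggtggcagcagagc
Sema6d: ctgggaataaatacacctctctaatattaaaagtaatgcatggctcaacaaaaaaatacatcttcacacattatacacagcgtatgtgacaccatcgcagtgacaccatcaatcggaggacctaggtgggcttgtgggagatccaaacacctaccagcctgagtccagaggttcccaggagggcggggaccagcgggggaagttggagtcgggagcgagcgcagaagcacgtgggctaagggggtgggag
Unc5b: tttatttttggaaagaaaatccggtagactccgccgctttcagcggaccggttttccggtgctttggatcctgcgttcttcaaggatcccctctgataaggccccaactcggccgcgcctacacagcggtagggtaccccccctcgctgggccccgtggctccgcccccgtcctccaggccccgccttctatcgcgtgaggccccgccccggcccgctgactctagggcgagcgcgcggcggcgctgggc
In the sequences shown, Flrt2, Robo4 and Sema3g held 1 such match each, and Plxnd1, Sema6d and Unc5b held none. The other RefSeq window of Sema6d lies within the GENCODE gene and is not shown, and it held 1 match. Over 52 windows of 250 bases before the starts of the 39 members with an entry, CAGAC on either strand was in 29 (55.8%), against 42.2% of all 32851 windows. GGCGCC was in 9 (17.3%) against 9.59%, and the palindrome GTCTAGAC was in 0 against 0.167%. A match is a description of letters, not a binding site.

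Partner genes of the pathways were given by a list of 37, all of which were tested. None passed edgeR's test at an adjusted p under 0.05 (0% of all genes did). Log2 fold changes were positive in 24 and negative in 13, with a median of 0.11, beside 48.2% positive over all genes tested. Nrp1, the co-receptor of class 3 semaphorins on endothelial cells, was at 367, 82.3 and 221 CPM in Smad4f/f and at 145, 125 and 177 CPM in Smad4-iECKO (-0.58, standard error 0.48). Nrp2, the co-receptor that Sema3f and Sema3g use, was at 159, 61.3 and 124 CPM against 93.8, 128 and 119 CPM (-0.02, standard error 0.37). Both were highest in Smad4f/f replicate 1 and lowest in Smad4f/f replicate 2, as the endothelial markers were. For Nrp1 the libraries between these did not follow the order of the markers. Neo1, which encodes the netrin receptor neogenin, was at 107, 181 and 203 CPM against 169, 138 and 180.5 CPM (-0.01, standard error 0.32). Plexin effectors held 10 positive genes of 13, among them Mical2, a redox enzyme that disassembles actin. It was at 16.1, 10.5 and 19.9 CPM against 20.9, 47.9 and 24.8 CPM, so the groups did not overlap. Its log2 fold change was 0.99 with a standard error of 0.43 (unadjusted p = 0.0459 by edgeR). Mical2 was the only partner gene of the 37 without overlap (5.31% of all genes tested) or at an unadjusted p under 0.05 (1.31%). The 5 collapsin response mediators (0.10 to 0.27) and the 3 adhesion co-receptors (0.07 to 0.36) were all positive. Of the 5 other netrin and repulsive guidance genes, Neo1 among them, 4 were negative, and of the 3 latrophilins 2 were. ROBO effectors held 4 positive genes of 6, and their Nck1 had the lowest value of the partner genes (-0.66).

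Calls of members in the authors' deposited table were more numerous. Of the 49 members, 7 in the authors' deposited table had an adjusted p under 0.05, 5 higher and 2 lower, where 13.4% of its 14225 genes with an adjusted p did (7.7% higher and 5.69% lower). The lower ones in the authors' deposited table were Sema3c (log2 fold change -1.79, adjusted p = 2.25e-06) and Flrt2 (-1.08, adjusted p = 0.00399). The higher ones in the authors' deposited table were Plxna4 (0.46, adjusted p = 0.000704), Ntn1 (1.21, adjusted p = 0.00312), Plxnb3 (1.18, adjusted p = 0.00790), Sema5a (0.39, adjusted p = 0.0430) and Robo1 (0.37, adjusted p = 0.0477). The count table gave 3 columns for each sample, identical in all 24421 genes, and each sample counted once in the tests above. With all 18 columns entered as samples, DESeq2 with a prior on the fold changes called 6 of these 7 members, all but Robo1 (adjusted p = 0.0519), where 11.8% of its 18526 genes were called (12.1% without the prior, with the same number of members). Its log2 fold changes of the members differed from those in the authors' deposited table by at most 0.0473. Entered once per sample, DESeq2 called none of them.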

How the data were processed

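Raw read counts per gene came from the authors' deposited count table, without normalization. The authors' deposited comparison of the groups gave, per the file headers, a mean signal after normalization, a log2 fold change with its error, a test score and raw and adjusted p-values. The submitters' processing notes list STAR, DESeq2 and mm10 without versions. What counted the reads, and on which annotation, is not given in the sources used here. Libraries were made with an Illumina TruSeq v2 kit, per the labels' protocols.

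The members, partner genes and marker lists were chosen with earlier results of these data known. Values in every sample are given for 13 members fixed by name, for those with an unadjusted edgeR p under 0.05, those whose groups did not overlap, the 10 largest log2 fold changes, any DESeq2 call and the highest per length in each role (23 members in all), and the other 26 are given by ranges. Members named for a correlation were chosen after their values were seen. Groups came from the genotype label, and replicates were numbered in accession order.

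Tests used edgeR 4.0.16 (R 4.3.3), the quasi-likelihood F-test on all 6 samples with TMM scaling, no covariate, filterByExpr (minimum count 10, minimum total 15) and Benjamini-Hochberg adjustment over 14362 genes, with a threshold of 0.05. Standard errors are the absolute log2 fold change over the square root of F. Log2 CPM for correlations used a prior count of 2, and r was computed with exact permutation p-values (scipy 1.17.1). Exon lengths are unions of GENCODE M21 exons (mm10), and promoters are from RefSeq (GRCm38.p6), with an entry for 39 members. Alternatives were DESeq2 1.42.0, other scalings and filters, the title prefix as a block, prefix 38 alone, all 18 columns and leaving out each sample; DESeq2 with a prior or with samples left out, and the count of positive members, were added after seeing the data.

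The limit that a count of 0 allows (3 counts) was 1.39 CPM for Smad4-iECKO replicate 2 and lay between 0.123 and 0.239 CPM for the other libraries, counting error only. Simulated data with 50 genes changed at each fold (2, 4, 8 and 16) were used to test the fits. edgeR found 0, 20, 41 and 45 of them among 14145 genes and made 4 false calls, and DESeq2 found 4, 33, 47 and 46 among 14362 genes and made 42 false calls. Figures were drawn with matplotlib 3.10.9.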

Additional observations from a re-analysis of the deposited data

How the results depend on the processing

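Over the whole table edgeR called 0 genes and 0 guidance members as reported (188 genes and 2 members at an unadjusted p under 0.05) and in every edgeR alternative run. DESeq2 called 12 genes and 0 members, also 0 members with each library left out in turn. Entering the 18 columns as samples raised the calls to 2235 genes and 6 members (2178 genes and 6 members with a prior on the fold changes), since each sample then counts 3 times; the title prefix as a block left 0 genes called and 42 members positive. The count of positive members was 20 of 48 when scaled to the endothelial markers, against 41.

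Of the 22 named and tested members, Flrt2, Ntn1, Plxna4, Robo1, Sema3c, Sema5b and Sema6a kept their direction in every alternative run, and 15 changed sign in at least 1; the cause was not tested. With prefix 38 alone the log2 fold changes that changed sign were 0.0029 for Flrt3, 0.28 for Sema3a, -0.026 for Ntn4, -0.056 for Plxnd1, -0.31 for Robo4, -0.74 for Sema3g, -0.13 for Sema6b, -0.23 for Sema7a, -0.20 for Slit1, -0.027 for Unc5a and -0.43 for Unc5b. Scaled to the endothelial markers they were -0.46 for Ntng2, -0.090 for Sema3e, -0.15 for Sema3f, -0.23 for Sema7a and -0.15 for Slit2. In the prefix 40 pair, a ratio with no test, they were -0.29 for Sema3e and -0.44 for Sema3f.

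Leaving out single libraries gave ranges across 0 of -0.28 to 0.38 for Ntng2, -0.11 to 0.74 for Robo4, -0.55 to 0.31 for Sema3a, -0.18 to 0.51 for Sema3e, -0.054 to 0.38 for Sema3f and -0.35 to 0.58 for Sema3g. The others were -0.031 to 1.07 for Sema6b, -0.26 to 0.35 for Sema7a, -0.28 to 1.10 for Slit1, -0.026 to 0.84 for Unc5a and -0.077 to 0.63 for Unc5b. Without crossing 0 they were 0.085 to 1.05 for Ntn4, 0.33 to 1.10 for Plxnd1, 0.17 to 0.88 for Sema5b, 0.16 to 0.56 for Robo1, 0.012 to 0.34 for Slit2, -0.62 to -0.09 for Sema6a and -1.02 to -0.07 for Flrt3. The lowest values for Ntn1, Ntn4, Plxnd1, Sema3g, Sema5b, Sema6b, Sema7a, Slit1, Unc5a and Unc5b came without Smad4-iECKO replicate 2. The replicate numbers follow accession order and pair no samples, so the title prefix was the block used. Low counts in the shallow Smad4-iECKO replicate 2 limit Sema3a, Sema3c, Flrt3, Ntn1 and Plxnb3.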
